A study of Mus musculus with 7 samples.

Results

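The genes Atp1b1, Atp1b2 and Atp1b3 encode beta subunits of the sodium-potassium ATPase. They are 3 of the 23930 genes counted in 7 libraries of sorted mouse bone marrow cells. They were chosen from measured values of these same libraries, the levels by library and the differences between groups, so their values are given as a description with no test. Tests are given only for other genes.

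The study compared bone marrow progenitors of pMT-10 mice, which overexpress IL-10, with those of BL/6 control mice. Every mouse of every group had received zinc in its drinking water for 15 days, and the metallothionein promoter that drives the Il10 transgene of pMT-10 mice is switched on by zinc. Common myeloid progenitors (CMPs, which can give rise to granulocytes, monocytes, red cells and megakaryocytes) were sequenced from BL/6 mice (2 libraries) and from pMT-10 mice (2 libraries). Only pMT-10 mice gave the remaining populations. These were LSK CD150+CD48+ cells, which are lineage-negative and positive for SCA-1, c-KIT, CD150 and CD48 (2 libraries), and haematopoietic stem cells (HSC, 1 library). How CMPs and HSC were gated, how old the mice were and whether animals were pooled is not stated in the labels. Each gene was read through 1 short amplicon, so levels are compared between libraries and never between genes.

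The sodium-potassium ATPase is the membrane pump that moves sodium out of the cell and potassium in, at the cost of ATP, and so sets the ion gradients and the volume of the cell. Its alpha subunit binds ATP and carries the ions. Its beta subunit is a glycosylated protein with a single membrane span that the alpha subunit needs to fold, to leave the endoplasmic reticulum and to reach the cell surface. Small FXYD proteins bind the assembled pump and tune it. Atp1b1 encodes the beta isoform of most epithelia, Atp1b2 the one first described as an adhesion molecule on glia, and Atp1b3 a widely expressed isoform also known as CD298. In the red cell lineage, transcripts of ATP1B2 and ATP1B3 are known from human reticulocytes.

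Library totals ran from 7372430 to 13854314 counts, and levels are given as CPM, counts scaled to a common library total with TMM factors. A count of 0 allows up to 3 counts, 0.216 to 0.397 CPM depending on the library. One sequencing chip held the pMT-10 CMP and LSK libraries, and another held those of HSC and BL/6 CMPs. Strain and chip therefore cannot be told apart in the CMPs. Nor can population and chip be told apart where HSC are compared with LSK cells or pMT-10 CMPs. The 11 stem cell markers summed to 1211 CPM in the HSC library, 667.5 to 715.4 CPM in the LSK libraries and 248.6 to 448.2 CPM in the CMPs. Procr, Mecom and Fgd5, genes of stem cells, stood at 38.5, 47.7 and 26.2 CPM in the HSC library and Cd48 at 6.49 CPM. Of the 11 markers 8 were highest in that library, but Mllt3 stood at 7.02 CPM there and 65.6 ± 3.18 CPM (SD, n = 2) in LSK cells, and Kit at 157.5 CPM there and 288.3 ± 20.8 CPM (n = 2) in BL/6 CMPs. Ly6a, which encodes SCA-1, was at 287.2 ± 54.2 CPM (SD, n = 2) in LSK cells and 1.06 ± 1.36 CPM (n = 2) in BL/6 CMPs. The mean of Kit, which encodes c-KIT, was lowest in LSK cells, at 99.49 ± 25.8 CPM against 117.7 ± 31.67 CPM in pMT-10 CMPs (n = 2 each). Cd48 was at 52.05 ± 16.32 CPM in LSK cells, 61.94 ± 24.86 CPM in pMT-10 CMPs and 19.17 ± 1.747 CPM in BL/6 CMPs (n = 2 each). T and NK cell markers were at 0 to 0.566 CPM in every library.

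Atp1b2 (chromosome 11, 69599736 to 69605942, minus strand, mm10) was abundant in 6 libraries and low in the HSC library. It stood at 429.6 and 510.4 CPM in BL/6 CMPs, 462.3 and 445.2 CPM in pMT-10 CMPs, 392.8 and 445.1 CPM in LSK CD150+CD48+ cells and 10.9 CPM in the HSC library. The BL/6 libraries overlapped those of the other CMPs and of LSK cells. Both LSK libraries lay below both pMT-10 CMP libraries, the nearest pair being 445.1 and 445.2 CPM. The HSC library lay far below all others. Its level rests on 82 counts, with a 95% exact Poisson interval of 8.63 to 13.5 CPM that covers counting error only.

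The group means of Atp1b2 were 470.0 ± 57.2 CPM in BL/6 CMPs, 453.7 ± 12.1 CPM in pMT-10 CMPs and 418.9 ± 37.0 CPM in LSK cells (SD, n = 2 in each). The neighbours in this order differed by less than the SD of at least one of them. The HSC level was 41.8-fold below the mean of pMT-10 CMPs, 38.6-fold below that of LSK cells and 43.3-fold below that of BL/6 CMPs. The BL/6 libraries were read on the chip of the HSC library but also differ from it in strain, and the part of chip or strain in these differences was not tested.

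**Figure D1:**
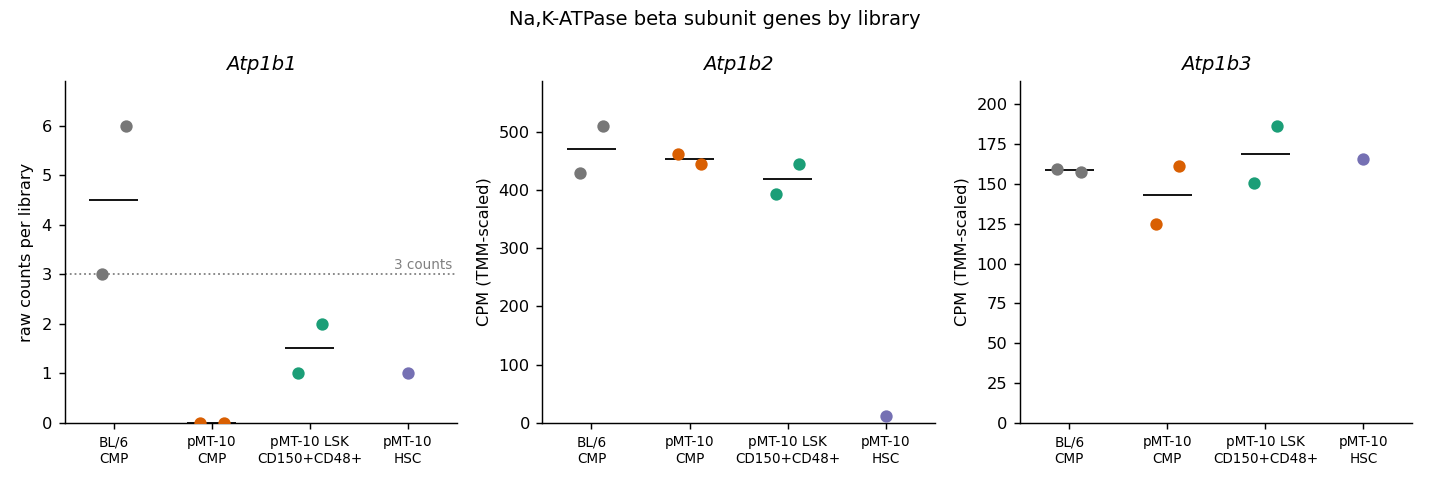
The 3 beta subunit genes by library: raw counts of Atp1b1 with a dotted line at 3 counts, and CPM of Atp1b2 and Atp1b3, with 1 dot per library and a line at the mean of each group with 2 libraries. Atp1b1 stays at 6 counts or fewer, Atp1b2 drops to 10.9 CPM in the HSC library, and Atp1b3 lies between 125.1 and 186.7 CPM throughout.

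On the log2 scale of the edgeR fit, Atp1b2 was -5.38 ± 0.30 (SE) in the HSC library against pMT-10 CMPs and -5.27 ± 0.30 against LSK cells. The fit gave -0.05 ± 0.18 for pMT-10 against BL/6 CMPs and -0.12 ± 0.18 for LSK cells against pMT-10 CMPs. These comparisons share libraries, and the HSC group has 1, so its spread is taken from the other groups. Of the 11429 genes fitted, 204 were lower than Atp1b2 on that scale in HSC against CMPs and 102 in HSC against LSK cells.

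Outside the HSC library the level of Atp1b2 varied little. The highest of the other 6 libraries was 1.3 times the lowest, and their mean was 41.2 times the HSC level.

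Markers of blood lineages also differed in the HSC library, some lower and some higher than elsewhere. The 6 CMP and granulocyte-monocyte markers summed to 91.99 CPM there, above the 42.67 to 44.76 CPM of LSK cells. That sum was below the 235.9 to 257.0 CPM of BL/6 CMPs and the 439.3 to 735.3 CPM of pMT-10 CMPs. Most of it was Cd34, at 76.5 CPM in the HSC library and 25.63 ± 5.99 CPM in LSK cells (SD, n = 2). Ctsg was also above its LSK mean (11.38 against 9.09 CPM). The others were below theirs, with Fcgr3 at 0.265 against 1.08 CPM and Mpo at 0.265 against 2.15 CPM. Elane stood at 3.57 against 5.63 CPM and Csf1r at 0 against 0.13 CPM. The 7 erythroid markers in the tables summed to 276.0 CPM in the HSC library, 618.4 to 677.5 CPM in pMT-10 CMPs, 578.9 to 727.9 CPM in LSK cells and 1106 to 1245 CPM in BL/6 CMPs. Of these 7, 6 were lowest in the HSC library, Gata1, Klf1, Epor, Ermap and Tfrc among them, as were 21.3% of all fitted genes. Gata1, the master transcription factor of red cells and megakaryocytes, still stood at 165.6 CPM there, and Epor, the erythropoietin receptor, at 77.6 CPM. The 6 megakaryocyte markers went the other way, with 2176 CPM in the HSC library and 293.5 to 830.5 CPM in the others. Of those 6, 5 were highest in the HSC library, as were 2853 of all 11429 fitted genes. B cell markers summed to 53.9 CPM there and 11.3 to 19.1 CPM elsewhere, with Ms4a1 and Ebf1 at 0. Mature granulocyte and macrophage markers summed to 14.2 CPM there and 3.39 to 18.1 CPM elsewhere, with Ly6g, Adgre1, C1qa and C1qb at 0. Of the 7 that passed 3 counts in any library, 3 were highest in the HSC library. These were S100a8, S100a9 and Ltf, genes of granulocytes, at 3.04, 5.43 and 1.85 CPM. In BL/6 CMPs S100a8 stood at 1.5 ± 1.665 CPM and S100a9 at 2.516 ± 3.101 CPM (SD, n = 2). Itgam stood at 2.515 CPM in the HSC library and 1.83 ± 0.77 CPM in LSK cells (n = 2). It reached 10.26 ± 0.00792 CPM in BL/6 CMPs and 13.51 ± 0.23 CPM in pMT-10 CMPs (n = 2 each). The part of any of these cell types in the Atp1b2 difference was not tested. In bulk samples, fewer cells of a type and less RNA per cell cannot be told apart.

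Atp1b3 (chromosome 9, 96332655 to 96364442, minus strand) was present at much the same level in every population. It stood at 159.6 and 157.5 CPM in BL/6 CMPs, 125.1 and 161.5 CPM in pMT-10 CMPs, 150.6 and 186.7 CPM in LSK cells and 166.0 CPM in the HSC library. The groups overlapped, and the HSC library (1254 counts) lay between the LSK libraries. In order of the mean, pMT-10 CMPs came lowest at 143.3 ± 25.7 CPM (SD, n = 2), then BL/6 CMPs at 158.5 ± 1.48 CPM (n = 2), the HSC library, and LSK cells at 168.7 ± 25.6 CPM (n = 2). Every step in this order was smaller than the SD of the pMT-10 CMP or LSK pair.

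In the fit, Atp1b3 differed by -0.15 ± 0.20 (log2, SE) between pMT-10 and BL/6 CMPs and by 0.24 ± 0.20 between LSK cells and pMT-10 CMPs. The HSC library differed by -0.02 ± 0.24 from LSK cells and by 0.21 ± 0.24 from pMT-10 CMPs. For pMT-10 against BL/6 CMPs the value was -0.34 without pMT-10 CMP replicate 2 and turned to 0.03 without replicate 1. That of Atp1b2 was -0.18 without BL/6 replicate 1 and turned to 0.09 without BL/6 replicate 2. For neither gene did the strains differ by more than the spread between libraries.

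Atp1b1 (chromosome 1, 164437109 to 164458355, minus strand) was at or near the limit of detection. It had 3 and 6 counts in BL/6 CMPs, 0 and 0 in pMT-10 CMPs, 1 and 2 in LSK cells and 1 in the HSC library, 13 counts in all. Only 1 library, of BL/6 CMPs, exceeded 3 counts, with 0.485 CPM. The gene did not pass the filter on low counts and overlaps the coding gene Nme7, and no fold was formed. A difference in Atp1b1 between populations was not detectable at this depth.

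The ratio of Atp1b2 to Atp1b3 within a library does not depend on how libraries are scaled. Each gene has its own amplicon, so the size of the ratio has no meaning across genes and only its change between libraries is read. The ratio was 0.0654 in the HSC library and 2.38 to 3.69 in the other 6, or -3.93 against 1.25 to 1.89 on the log2 scale.

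Fxyd5 (chromosome 7, 31032722 to 31042481), a regulator of the pump also called dysadherin for its effect on cell adhesion, was the FXYD gene with counts to test. It stood at 119.9 and 116.2 CPM in BL/6 CMPs, 200.3 and 282.3 CPM in pMT-10 CMPs, 207.8 and 176.5 CPM in LSK cells and 481.6 CPM in the HSC library. Both BL/6 libraries lay below all others and the HSC library above all. Fxyd5 rose in pMT-10 against BL/6 CMPs by 1.03 ± 0.21 on the log2 scale (edgeR, adjusted p = 0.00769). The call was lost without BL/6 replicate 1 (0.0806) or replicate 2 (0.0768), and over all alternatives the adjusted p began at 1.7e-05.

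In every test of the HSC library against LSK cells or pMT-10 CMPs, population and chip cannot be told apart. The HSC group also has 1 library, so every test of it assumes that HSC vary like the other groups, and no spread between HSC samples was measured. On that footing Fxyd5 was called higher in the HSC library than in LSK cells, by 1.33 ± 0.24 on the log2 scale (edgeR, adjusted p = 0.00772, from 5.08e-06 over the alternatives) and than in pMT-10 CMPs, by 0.997 ± 0.24 (adjusted p = 0.0184, from 0.000127). The first call was lost without LSK replicate 1 (0.0683) or replicate 2 (0.0769). The second was lost without BL/6 replicate 1 (0.0514) or replicate 2 (0.0553) and with only those 2 groups in the fit (0.117). LSK cells and pMT-10 CMPs did not differ beyond the spread (-0.33 ± 0.20, adjusted p = 0.311), except without pMT-10 CMP replicate 1 (0.0135, with up to 0.809 over the alternatives). The ratio of Fxyd5 to Atp1b3 was 2.90 in the HSC library and 0.738 to 1.75 in the others.

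**Figure D2:**
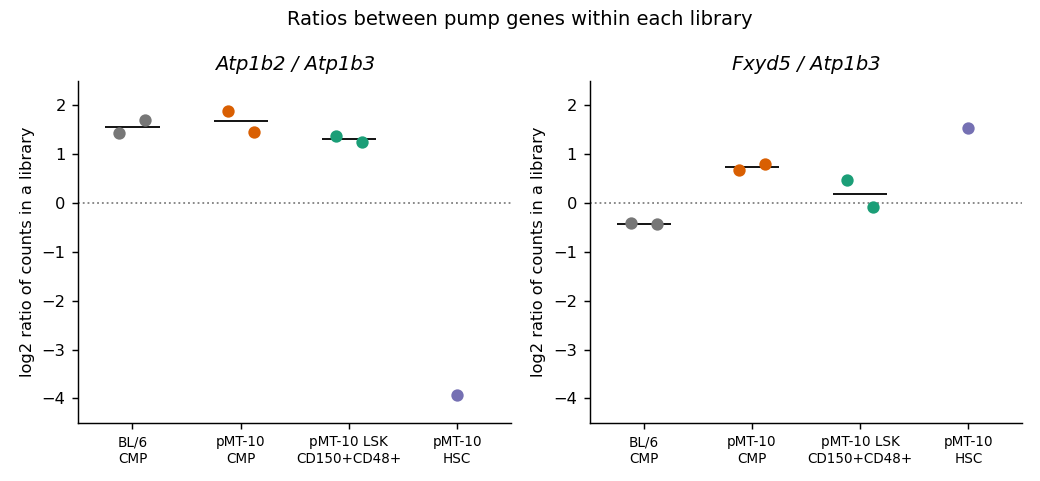
Log2 ratios of counts within each library for Atp1b2 to Atp1b3 and Fxyd5 to Atp1b3, with 1 dot per library and a line at the mean of each group with 2 libraries. The HSC library lies below the others for Atp1b2 to Atp1b3 (-3.93 against 1.25 to 1.89) and at 1.54 against -0.44 to 0.81 for Fxyd5 to Atp1b3.

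The other FXYD genes in the tables were at or near 0. Fxyd2, the gamma subunit of kidney, reached 7 counts at most, Fxyd7 3, and Fxyd1 and Fxyd4 1, while Fxyd3 had none. Atp4b, the beta subunit of the gastric proton pump, reached 5 counts, and Atp1b4 had none. Of the NKAIN genes, whose products bind the beta subunit, Nkain2, Nkain3 and Nkain4 had no counts. Nkain1 stood at 2.77 and 2.34 CPM in BL/6 CMPs, 2.43 and 1.27 CPM in pMT-10 CMPs, 4.79 and 1.37 CPM in LSK cells and 5.29 CPM in the HSC library. Its largest fitted difference, 1.51 ± 0.75 in HSC against pMT-10 CMPs, did not pass the test (edgeR, adjusted p = 0.166), except without pMT-10 CMP replicate 1 (0.044, with up to 0.393 over the alternatives).

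**Figure D3:**
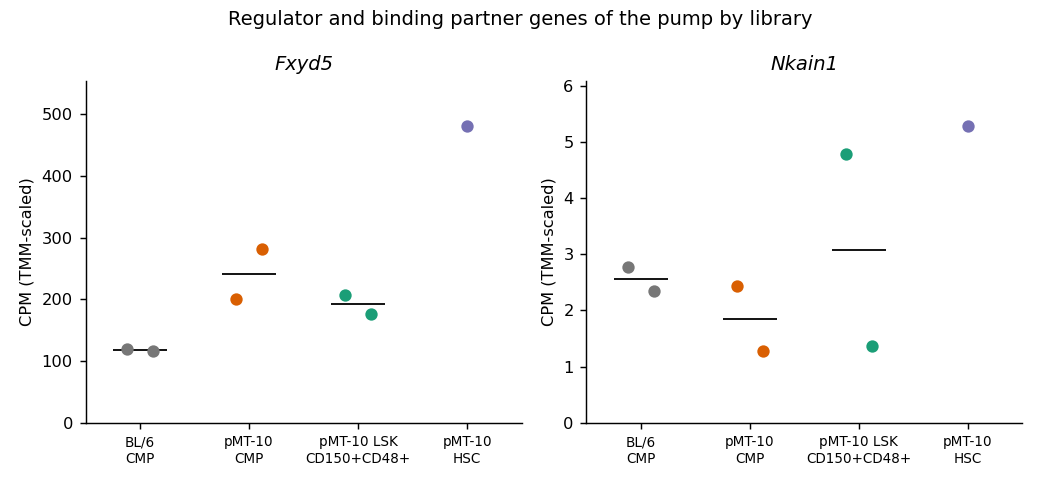
CPM of Fxyd5 and Nkain1 by library, with 1 dot per library and a line at the mean of each group with 2 libraries. Fxyd5 reaches 481.6 CPM in the HSC library and is lowest in BL/6 CMPs, and the LSK libraries of Nkain1 lie as far apart as 1.37 and 4.79 CPM.

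The pump works beside other ion and lipid transporters. These were listed with other pump subunits and with genes that bind or regulate the pump, 112 in all. The list held 15 kinases and ligases, 7 FXYD and 4 NKAIN genes, and left out the 3 beta subunit genes described above. Of the 112, 109 were in the tables and 72 had counts enough to test. In pMT-10 against BL/6 CMPs, 15 of the 72 rose (20.8%, against 14.3% of all tested genes) and 11 fell (15.3% against 13.7%), with a median log2 difference of 0.16 (0.01 for all tested genes). The 18 sodium-coupled transporters held 5 that rose (27.8%) and 4 that fell (22.2%). Slc1a5, the sodium-driven glutamine carrier, went from 105.4 ± 3.30 to 230.4 ± 22.8 CPM (SD, n = 2 each; log2 difference 1.13 ± 0.17, edgeR adjusted p = 0.00307).

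Among 13 potassium channels and cotransporters, 2 rose and 2 fell in pMT-10 CMPs (15.4% each), near the 14.3% and 13.7% of all tested genes. Kcna3, the voltage-gated channel Kv1.3 of lymphocytes, rose from 57.7 ± 1.11 to 131.8 ± 8.18 CPM (1.19 ± 0.17, edgeR adjusted p = 0.00249). Kcnab2, an accessory subunit of potassium channels, fell from 254.6 ± 5.425 to 106.2 ± 10.09 CPM (-1.26 ± 0.19, edgeR adjusted p = 0.003). Kinases and ligases that act on the pump held 1 that rose and 2 that fell of 14 (7.14% and 14.3%), no more than the share of all tested genes in the first direction and near it in the second. Nedd4, a ubiquitin ligase of membrane proteins, fell from 144.8 ± 21.6 to 25.1 ± 17.0 CPM (adjusted p = 0.0032). The pMT-10 CMP libraries stood at 37.1 and 13.1 CPM, and the log2 difference was -3.47 without replicate 1 and -1.97 without replicate 2. Of 10 cation pumps of the same P-type family 3 rose and 1 fell (30.0% rose). Atp10a, a flippase that moves lipids across the membrane, rose by 1.57 ± 0.26 on the log2 scale (adjusted p = 0.0036). Without either BL/6 library fewer of the 72 were called, as was so for all tested genes, and the cause was not tested.

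In LSK CD150+CD48+ cells against pMT-10 CMPs, 5 of the 72 rose (6.94%, against 5.92% of all tested genes) and 7 fell (9.72% against 5.92%), with a median of -0.15 (-0.01 for all). Atp8b4, a flippase gene, fell from 27.8 ± 10.3 to 1.83 ± 0.268 CPM (log2 difference -3.90 ± 0.37, edgeR adjusted p = 0.000959). Nedd4 rose from 25.1 ± 17.0 to 219.7 ± 22.4 CPM (3.13 ± 0.41, adjusted p = 0.00302). Kcnab2 rose from 106.2 ± 10.1 to 287.2 ± 54.2 CPM (adjusted p = 0.00329), while BL/6 CMPs stood at 254.6 ± 5.425 CPM. Each of these 3 calls was lost without LSK replicate 1, with adjusted p of 0.055 for Atp8b4, 0.078 for Nedd4 and 0.0745 for Kcnab2, and that of Nedd4 also without LSK replicate 2 (0.0598). Leaving out replicate 1 of the pMT-10 CMPs moved the log2 difference of Nedd4 to 4.07, and leaving out replicate 2 to 2.57. Over the alternatives their lowest values were 3.65e-21, 3.42e-27 and 1.3e-09. Fewer of the 72 were called without either LSK library or either BL/6 library, and more without pMT-10 CMP replicate 1. The share of all tested genes called moved the same way in each case.

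In the HSC library against LSK cells, 12 of the 72 were called higher (16.7%, against 10.6% of all tested genes) and 5 lower (6.94% against 8.15%), with a median of 0.16 (0.03 for all), on a test in which the 1 HSC library has no spread of its own. Potassium channels held 4 of the 12 called higher (30.8% of the 13 tested) and 1 of the 5 called lower (7.69%), with a median of 1.18 over the list. Kcnk5, a pH-sensitive leak channel, stood at 181.7 CPM against 80.2 ± 4.25 CPM (n = 2; log2 difference 1.18 ± 0.21, edgeR adjusted p = 0.00759), a call lost without LSK replicate 1 (0.0684) or replicate 2 (0.0677) and lowest at 5.85e-05 over the alternatives. Of the 14 regulators 4 were called higher (28.6%) and 1 lower (7.14%). Sik1, a salt-inducible kinase that acts on the pump, stood at 52.0 CPM against 12.5 ± 2.10 CPM (adjusted p = 0.00275, with 1.73e-08 to 0.0524 over the alternatives, the latter without LSK replicate 1). Atp13a3, a P-type polyamine transporter, stood at 22.9 CPM against 139.0 ± 11.6 CPM (-2.60 ± 0.25, adjusted p = 0.000738), and kept this call under all alternatives. Fewer of the 72 were called without either LSK library or either BL/6 library, and more without either pMT-10 CMP library. The share of all tested genes called moved the same way. Without an LSK or a BL/6 library the list no longer held a larger share of calls than all tested genes, though it did without either pMT-10 CMP library.

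In the HSC library against pMT-10 CMPs, 12 of the 72 were called higher (16.7%, against 13.8% of all tested genes) and 12 lower (16.7% against 11.7%), with a median of 0.04 (0.02 for all), again with 1 HSC library. Atp13a3 stood at 22.9 CPM against 180.2 ± 6.02 CPM (log2 difference -2.98 ± 0.25, edgeR adjusted p = 0.000326) and Atp8b4 at 1.72 CPM against 27.8 ± 10.3 CPM (adjusted p = 0.00142). Kcnk5 was 1.56 ± 0.21 higher on the log2 scale (adjusted p = 0.00175), and of the 13 potassium channel and cotransporter genes 5 were called higher (38.5%) and 3 lower (23.1%). Stk39, a kinase of cation-chloride cotransporters, stood at 23.0 CPM against 3.22 ± 0.0320 CPM (2.83 ± 0.40, adjusted p = 0.00189). These 4 calls held under all alternatives run. Of the 18 sodium-coupled transporters 1 was called higher and 1 lower (5.56% each). Fewer of the 72 were called with only those groups in the fit, without LSK replicate 1 and without either BL/6 library. More were called without pMT-10 CMP replicate 1. The share of all tested genes called moved the same way in each case.

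The genes most like Atp1b2 over the 7 libraries were sought by Pearson correlation of log2(CPM + 1) among 6638 genes. The 5 highest were Car1 (r = 0.994), Aqp1 (0.99), Lhfpl2 (0.988), Klf1 (0.987) and Atp13a3 (0.987). Car1 encodes carbonic anhydrase of red cells and stood at 425.7 CPM in the HSC library and 6435 to 10480 CPM in the others. Aqp1, the water channel of red cells, stood at 154.3 CPM against 670.6 to 955.6 CPM. Klf1, the erythroid transcription factor and one of the markers above, stood at 2.91 CPM against 34.5 to 53.6 CPM.

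These correlations describe 7 points that share the depth and chip of each library, and the HSC library carries most of them. Over the 6 libraries without it, r with Atp1b2 was 0.652 for Car1, 0.782 for Aqp1, 0.923 for Lhfpl2, 0.192 for Klf1 and 0.097 for Atp13a3. In all, 149 genes had r over 0.9. The 3 least like Atp1b2 were highest in the HSC library. They were Sla, an adaptor that dampens antigen receptor signals (411.9 CPM against 70.1 to 92.3), Fkbp11, a protein-folding enzyme of the endoplasmic reticulum (83.5 against 11.4 to 15.2), and Gucy1a3, a subunit of soluble guanylate cyclase (99.1 against 10.5 to 17.9).

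**Figure D4:**
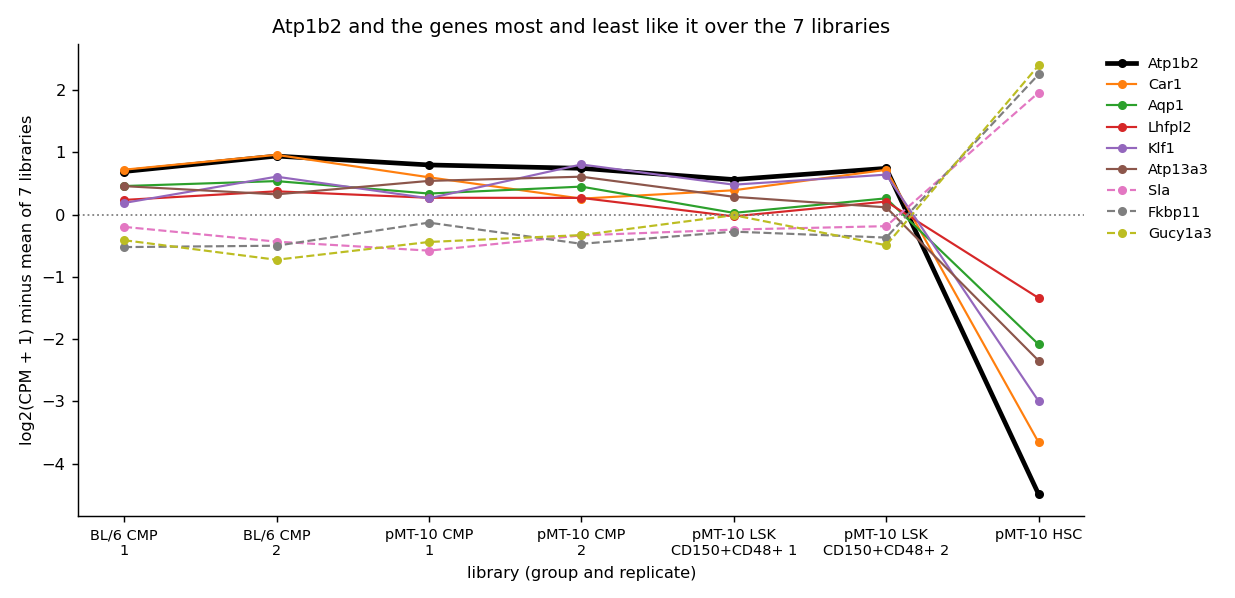
Log2(CPM + 1) minus the mean over the 7 libraries for Atp1b2 (black), the 5 genes most like it (solid) and the 3 least like it (dashed), with the libraries along the x axis. The lines part at the HSC library, where Atp1b2 and the solid lines drop and the dashed lines rise, and lie close together in the other 6.

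For Atp1b3, whose level varied little, 4 genes had r over 0.9. The closest were Ywhab, a 14-3-3 protein (r = 0.964), Mfsd1, a lysosomal transporter (0.935), and Prkra, an activator of the kinase PKR (0.919), followed by March7 (0.91) and Cyp20a1 (0.899). The least alike were Ddx51 (-0.985), Pak4 (-0.951) and Dhx38 (-0.929). Their patterns ran between replicates, with pMT-10 CMP replicate 1 lowest for Atp1b3 (125.1 CPM) and highest for Ddx51, an RNA helicase (139.0 CPM). Among the pump genes, r over the 7 libraries was -0.202 for Atp1b2 with Atp1b3 and 0.07 for Fxyd5 with Atp1b3. For Fxyd5 with Atp1b2 it was -0.788, which again includes the HSC library. Atp1b1 was too low for such a comparison.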

How the data were processed

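Total RNA of sorted cells had been amplified with the Ion AmpliSeq mouse transcriptome kit, per the labels' protocols. The authors deposited raw counts per gene, with a separate table for each of the chips. Per the submitters' processing notes the build was mm10. For the aligner and the counter, no name is given in the sources used here. Gene positions are those of GENCODE M21. The reads carry no molecular identifiers, so the Poisson intervals and the floors reflect counting error alone.

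The analysis used edgeR 4.0.16 in R 4.3.3. FilterByExpr (minimum count 10) left 11429 of 23930 genes, libraries were scaled with TMM factors, and all 7 were fitted together with 4 group means (3 residual degrees of freedom). P-values of the quasi-likelihood F-test were Benjamini-Hochberg adjusted over the whole table and called under 0.05. No chip term could be fitted beside the groups. Whether replicates are separate animals is not stated, so the p-values reflect the spread between these samples alone, which may be technical.

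The members and the gene lists were chosen with earlier results of these data known. The genes named were every pump subunit, FXYD and NKAIN gene, genes with the smallest p among the called members of each other list (up to 3 per comparison), and the 5 most and 3 least correlated genes with a mean of 20 CPM or more. Some genes picked by this rule are not reported here. Alternatives were RLE size factors, total counts, DESeq2 1.42.0, limma-voom (limma 3.58.1), no filter, a minimum count of 50, each library except that of HSC left out, and only the groups compared. A replicate block was run for the comparisons without HSC.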

Additional observations from a re-analysis of the deposited data

How the results depend on the processing

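Over the 13 alternatives the log2 difference of Atp1b2 in the HSC library ran from -5.36 to -5.18 against LSK cells. Against pMT-10 CMPs it ran from -5.45 to -5.36, with -5.44 when only the groups compared were fitted. None of the alternatives left out the 1 HSC library on which these values rest, so they could not test the direction. Leaving out 1 library gave -0.18 to 0.09 for Atp1b2 and -0.341 to 0.027 for Atp1b3 in pMT-10 against BL/6 CMPs. The number of genes called moved with single libraries, and the cause was not tested. For pMT-10 against BL/6 CMPs it was 3204 and ran from 582 (without BL/6 replicate 1) to 5268 (without pMT-10 CMP replicate 1). For LSK cells against pMT-10 CMPs it was 1354, from 44 (without LSK replicate 1) to 4274 (without pMT-10 CMP replicate 1), with 2237 without a filter on low counts and 595 with only the groups compared. For HSC against LSK cells it was 2147, from 266 (without LSK replicate 1) to 4811 (without either pMT-10 CMP library), and 3987 with only the groups compared. For HSC against pMT-10 CMPs it was 2912, from 1733 (without BL/6 replicate 1) to 5222 (without pMT-10 CMP replicate 1), and 1042 with only the groups compared. A fit that leaves 1 library in a group assumes that it varies like the other groups. Over 68 named results of genes with a test, 911 alternatives were run, of which 794 kept direction and side of the threshold, 111 lost a call, 6 gained one and 0 reversed.

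With the replicate number as a block, 2979 genes were called for pMT-10 against BL/6 CMPs and 1181 for LSK cells against pMT-10 CMPs. The labels do not say that a number pairs libraries, and the deviations of same-numbered libraries correlated at -0.019, -0.019 and -0.076 between the 3 pairs of groups. No paired analysis was possible for the HSC comparisons because that group has 1 library. Depth limits Atp1b1, with at most 6 counts.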
